A study of Homo sapiens with 17 samples.

Results

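The human genome carries the miR-15/16 family in a pair of clusters built alike, MIR15A with MIR16-1 on chromosome 13 and MIR15B with MIR16-2 on chromosome 3. All 4 hairpins were chosen by position, as the alignments of 18 to 26 nt inside their hg19 windows on the hairpin's strand. The authors' deposited tables listed 146 distinct alignments there, of which 40 had a ratio above 0 in all 8 tables, out of 11342 such alignments in the genome. The small RNAs came from K562, a human erythroleukemia line, in which every library, the water ones included, carried a hairpin construct against Drosha (genotype Drosha_shRNA_KD). Cells were grown with Dox, doxycycline at 1 µg/mL, which induces that hairpin. This was done for 3 d (2 biological replicates), 13 d (3 biological replicates) or 31 d (3 biological replicates). Each Dox library had a water library of the same day and replicate number. The library titles do not say whether 1 culture was sampled at several times. The series held 17 libraries, 8 of Dox, 8 of water and 1 untreated library not analysed here. Labels do not say whether the cells are 1 clone. The Drosha level itself was not checked here, nor were erythroid markers, since the files name no gene.

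Each deposited table gives 1 ratio per alignment between the Dox and the water library of 1 day and replicate number. Which of these libraries is the numerator is not stated, so "higher" below means a ratio above 1 (log2 above 0) and "lower" a ratio below 1, and neither is tied to Dox. One direction for all 8 tables is assumed, not known. A ratio of 0 means that no read was found in the numerator library. Replicate 2 is absent at 3 d. A bulk ratio cannot tell fewer cells carrying a small RNA from less of it per cell.

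As background, Drosha cuts hairpins out of primary transcripts in the nucleus, Dicer cuts off the loop, and one strand is loaded into Argonaute, where bases 2 to 8, the seed, pair with target mRNAs. The members of the miR-15/16 family share a seed and are known to repress BCL2, which blocks cell death, and cyclins such as CCND1 and CCNE1. MIR15A and MIR16-1 are known from their loss in chronic lymphocytic leukemia. The MIR15A hairpin is known as a poor Drosha substrate whose cutting is helped by the neighbouring MIR16-1 hairpin.

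The mature arms are shown first because the comparisons rest on which of them share letters. They are the RefSeq sequences (GRCh38.p14 table), 5′ to 3′, with the seed in capitals.
miR-15a-5p: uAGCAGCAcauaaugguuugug
miR-15b-5p: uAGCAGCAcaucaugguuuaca
miR-16-5p: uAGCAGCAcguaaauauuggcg
miR-15a-3p: cAGGCCAUauugugcugccuca
miR-15b-3p: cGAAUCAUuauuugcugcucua
miR-16-1-3p: cCAGUAUUaacugugcugcuga
miR-16-2-3p: cCAAUAUUacugugcugcuuua
The 3 arms of the 5p side share the seed AGCAGCA and their first 9 bases, while each of the 4 arms of the 3p side has a seed of its own. miR-15a-5p and miR-15b-5p differ at 4 positions, counted from 1 at the 5′ end with the miR-15a-5p base first, which are A12C, G20A, U21C and G22A. miR-16-5p differs from miR-15a-5p at 6 positions and from miR-15b-5p at 8. It is the same from both clusters, and the genomic letters stay the same for 23 nt from its 5′ end, so that shorter reads cannot be told apart by locus.

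On hg19 the arms of the chromosome 13 cluster lie on the minus strand, miR-15a-5p at chr13:50623303-50623324, miR-15a-3p at chr13:50623266-50623287, miR-16-5p at chr13:50623163-50623184 and miR-16-1-3p at chr13:50623121-50623142. Those of the chromosome 3 cluster lie on the plus strand, miR-15b-5p at chr3:160122395-160122416, miR-15b-3p at chr3:160122433-160122454, miR-16-5p at chr3:160122542-160122563 and miR-16-2-3p at chr3:160122585-160122606. In the GRCh38 annotation, MIR15A and MIR16-1 lie in DLEU2, a long noncoding RNA gene of the same strand. MIR15A overlaps 2 annotated exons of DLEU2, and MIR16-1 overlaps 0. MIR15B and MIR16-2 lie in introns of SMC4, which encodes a condensin subunit, and overlap 0 of its exons. An antisense gene, AC079594.2, spans both.

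The 4 hairpins differed in how much of them the tables listed. MIR16-2 had 56 distinct alignments, 17 of them above 0 in all 8 tables, MIR15B had 38 with 13, MIR16-1 had 35 with 8, and MIR15A had 17 with 2. The passenger arms of the chromosome 13 cluster were thinly listed. miR-15a-3p, the passenger strand of MIR15A, had 1 alignment, with a deposited ratio of 1.01 in 3 d replicate 3 and a ratio of 0 in 4 tables, and no entry in the other 3. miR-16-1-3p, the passenger strand of MIR16-1, had 12 alignments and 0 that were above 0 in every table, against 29 and 9 for miR-16-2-3p of the twin cluster. How many reads stand behind a ratio is not given here, because the single-library columns carry no library name and were not used.

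A stack is the set of alignments with 1 strand and 1 5′ end, at least 3 of them above 0 in all 8 tables, and its value in a table is the median log2 ratio of those alignments. The genome held 1078 stacks, of which 6 belong to the 4 hairpins: miR-15b-5p, miR-15b-3p, miR-16-5p at each locus, and miR-16-2-3p with the annotated 5′ end and with a 5′ end 1 nt upstream. miR-15a-5p formed no stack, with 2 such alignments. Tables were shifted against each other. The median over all stacks was 0.70 and 1.67 on the log2 scale in the tables of 3 d, then 0.53, -0.23 and -1.24 in those of 13 d, then -0.11, -1.26 and -0.72 at 31 d. The limma test of each day against 0, with Benjamini-Hochberg adjustment over the 1078 stacks and a threshold of 0.05, called 22.5% of all stacks higher at 3 d, 29.0% lower at 13 d and 27.7% lower at 31 d. A called member therefore stands among many others.

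**Figure D1:**
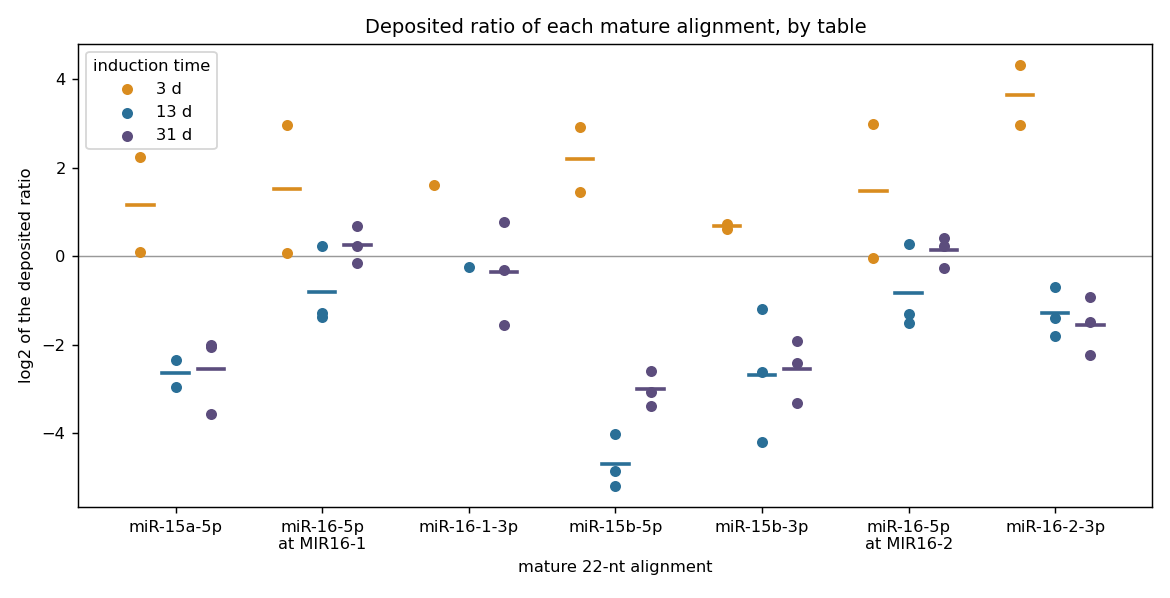
Log2 of the deposited ratio (vertical axis) of the 22-nt mature alignment of 7 arms (horizontal axis), 1 point per table, coloured by induction time, with a bar at the mean where there are at least 2 points. Ratios of 0 and missing entries are left out, so miR-15a-5p has 2 points at 13 d and miR-16-1-3p has 5 in all; miR-15b-5p lies between -5.19 and -4.02 at 13 d, below every other arm except the lowest miR-15b-3p table.

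The guide arm of MIR15B had the lowest mean log2 ratios at 13 d and 31 d among the mature 22-nt alignments that were above 0 in all 8 tables. In the authors' deposited tables the 22-nt miR-15b-5p alignment had ratios of 2.75 and 7.64 at 3 d, of 0.0617, 0.0273 and 0.0345 at 13 d, and of 0.167, 0.0967 and 0.120 at 31 d. All values of 3 d were above 1 and all later values were below it, with no overlap between 3 d and the later times. The medians over all stacks did not overlap between these times either, with 0.70 and 1.67 at 3 d and a highest later value of 0.53. How many of all alignments had no such overlap was not counted. In a limma fit over the 11342 single alignments, its mean log2 ratio was -4.69 ± 0.64 (SE, n = 3 tables, adjusted p = 0.000355) at 13 d and -3.00 ± 0.64 (n = 3, adjusted p = 0.00487) at 31 d, both lower by the test. At 3 d it was 2.20 ± 0.78 (n = 2, adjusted p = 0.0535), which missed the threshold.

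The difference between times was tested in the same limma fit. The 13 d mean minus the 3 d mean of the miR-15b-5p mature alignment was -6.89 ± 1.01 on the log2 scale (adjusted p = 0.000583), and the 31 d mean minus the 3 d mean was -5.20 ± 1.01 (adjusted p = 0.00242). The whole miR-15b-5p stack moved less. Its values were 1.22 and 3.36 at 3 d, then -1.10, -2.40 and -1.80 at 13 d, then -1.55, -1.12 and -1.60 at 31 d. The stack was higher at 3 d (2.29 ± 0.71, adjusted p = 0.0279) and lower at 13 d (-1.77 ± 0.58, adjusted p = 0.0184), while -1.42 ± 0.58 at 31 d missed the threshold by limma (adjusted p = 0.0615). With each table centred on the median of all stacks, the 13 d value stayed called (-1.45, adjusted p = 0.0246) and the 3 d value did not (1.10, adjusted p = 0.225). Without 13 d replicate 3, a table with a strong length trend, the 13 d stack was at -1.90 with an adjusted p of 0.0582 by limma, and without 13 d replicate 2 it was at -1.45 (adjusted p = 0.167). Without 3 d replicate 3 the 3 d stack was at 1.22 (adjusted p = 0.383).

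The stack pools lengths, and the ratio of miR-15b-5p varied with read length. At 13 d the alignments with the annotated 5′ end had mean log2 ratios of -0.10 at 18 nt, -0.12 at 19 nt, -0.64 at 20 nt, -2.88 at 21 nt, -4.69 at 22 nt and -4.06 at 23 nt. At 31 d the 18-nt and 19-nt forms were at 0.00116 and 0.0218, and the 22-nt and 23-nt forms at -3.00 and -3.68. Single tables spread widely around these means for the shortest forms, with 18-nt values of -0.59, 1.95 and -1.35 and 19-nt values of -1.04, 1.28 and -0.18 at 31 d. The forms of 21 to 23 nt were below 0 in all 6 later tables and were called lower at 13 d. At 3 d the values had no such slope, with 2.31 at 18 nt and 2.20 at 22 nt.

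Within a table, the 22-nt minus the 20-nt log2 ratio of miR-15b-5p was 0.48 and -0.22 at 3 d, then -4.09, -3.67 and -4.40 at 13 d, then -1.73, -2.85 and -2.16 at 31 d. It was below 0 in 7 of 8 tables. The other arms with both lengths above 0 in all 8 tables, and the tables as a whole, also had means below 0 at 13 d and 31 d. These means were closer to 0 than those of miR-15b-5p (-4.05 and -2.25). The median over all alignments of each length gave 22-nt minus 20-nt values of -0.69, -0.19 and -1.05 at 13 d and -0.34, -1.34 and -0.51 at 31 d. The other arms had means at 13 d of -1.81 for miR-15b-3p, -1.30 and -1.29 for miR-16-5p at MIR16-1 and MIR16-2, and -1.07 for miR-16-2-3p. These length differences were given no test, and the part of the table-wide length trend in them was not tested. With the median of each length subtracted, the miR-15b-5p stack was still called lower at 13 d (-1.55, adjusted p = 0.00706 by limma).

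**Figure D2:**
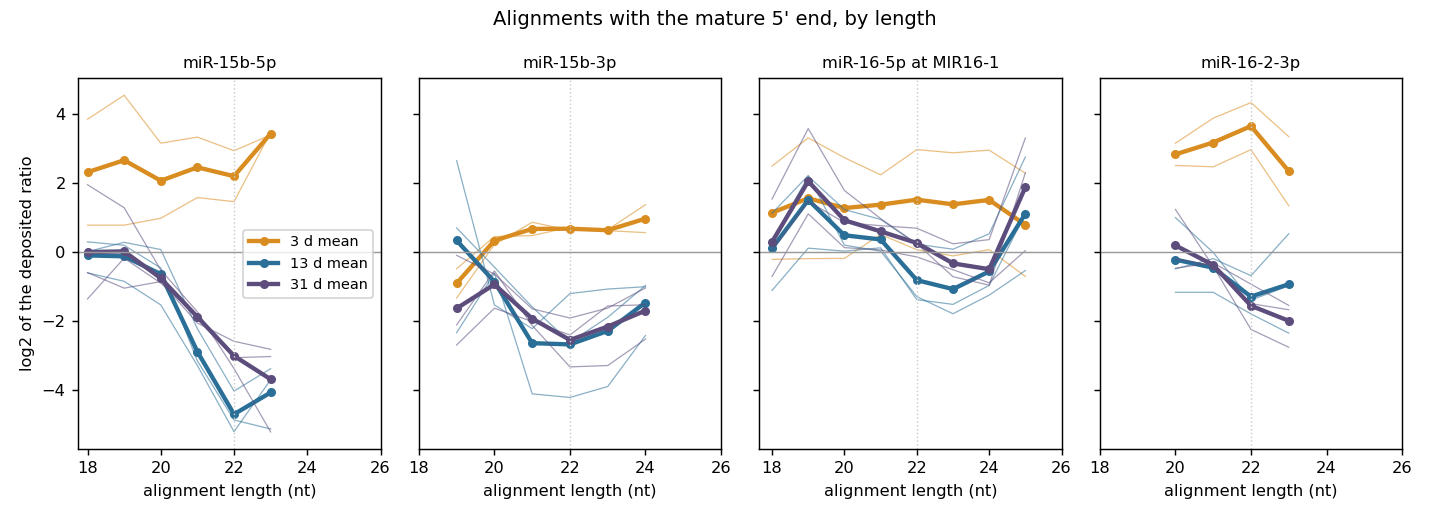
Log2 of the deposited ratio (vertical axis) against alignment length in nt (horizontal axis) for alignments with the mature 5′ end of 4 arms that were above 0 in all 8 tables; thin lines are tables, thick lines day means, and the dotted line marks 22 nt. At 13 d and 31 d the miR-15b-5p mean goes down from near 0 at 18 nt to -4.06 and -3.68 at 23 nt, while its 3 d line stays between 2.07 and 3.43.

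miR-15b-3p, the passenger strand of the same hairpin, was also lower at the later times. In the authors' deposited tables its 22-nt alignment had ratios of 1.65 and 1.55 at 3 d, of 0.164, 0.436 and 0.0542 at 13 d, and of 0.267, 0.100 and 0.190 at 31 d. The times later than 3 d did not overlap with 3 d, which was also so for the medians over all stacks. In the limma fit over single alignments its mean log2 ratio was -2.67 ± 0.70 (adjusted p = 0.00962) at 13 d and -2.54 ± 0.70 (adjusted p = 0.0183) at 31 d. Its value of 0.68 ± 0.86 at 3 d was not called (adjusted p = 0.553), and its difference from miR-15b-5p was not tested. The miR-15b-3p stack was lower at 13 d (-1.85 ± 0.57, adjusted p = 0.0136) and at 31 d (-1.82 ± 0.57, adjusted p = 0.0175). Without 13 d replicate 3 the stack's 13 d value was -1.20 (adjusted p = 0.159 by limma), and without 31 d replicate 2 its 31 d value was -1.57 (adjusted p = 0.156); without 31 d replicate 3 that was -1.82 (adjusted p = 0.0967).

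Another product of MIR15B lay just outside the mature arm. Fragments that end on the base before a mature 5p start are known as microRNA-offset RNAs and lie upstream of the Drosha cut. The MIR15B hairpin is shown because these fragments and both arms come from it, with the mature arms in capitals and the fragment of 19 nt (chr3:160122376-160122394, plus strand) as its first bases.
MIR15B hairpin: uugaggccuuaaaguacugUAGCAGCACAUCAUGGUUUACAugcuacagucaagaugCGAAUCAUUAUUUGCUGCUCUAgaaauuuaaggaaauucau
flanking fragment: uugaggccuuaaaguacug
Forms of 19, 20 and 21 nt with this 3′ end were above 0 in all 8 tables, those of 20 and 21 nt starting 1 and 2 nt outside the window. The 19-nt form had log2 ratios of -2.47 and -0.38 at 3 d, of -3.50, -5.07 and -3.83 at 13 d, and of -1.31, -2.78 and -3.25 at 31 d. It was below 0 in every table, 3 d included, where the 22-nt alignments of both mature arms were above 0.

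The limma test over single alignments called all 3 forms of the fragment lower at 13 d, with means of -4.13 ± 0.70 (19 nt, adjusted p = 0.0009), -3.80 ± 0.79 (20 nt, adjusted p = 0.00258) and -2.75 ± 0.70 (21 nt, adjusted p = 0.00849). It also called all 3 lower at 31 d, with -2.44 ± 0.70 for the 19-nt form (adjusted p = 0.0223). At 3 d their means of -1.43, -1.26 and -1.52 were not called, and for no form did 13 d against 3 d pass the test (adjusted p = 0.0758 for the 19-nt form). The forms share nearly all their letters and are not independent of each other. The fragment of 20 nt that ends just before miR-16-5p at MIR16-2 had log2 ratios of 0.03 and 2.11 at 3 d, then -3.35, -0.42 and 0.84 at 13 d, then 0.25, 0.77 and -1.47 at 31 d, with overlap between all times.

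**Figure D3:**
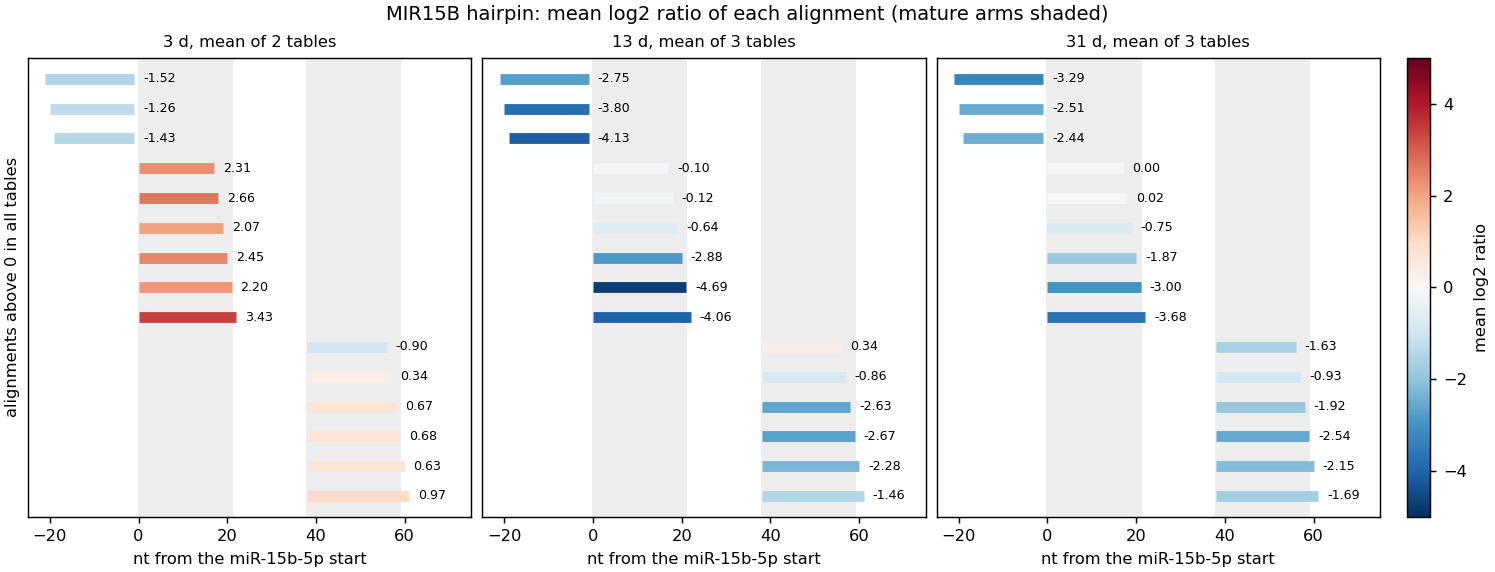
Alignments of the MIR15B hairpin and its upstream flank that were above 0 in all 8 tables, drawn from their first to their last base against the distance in nt from the miR-15b-5p start (horizontal axis), 1 row each; colour and printed number are the mean log2 ratio of each time, and grey marks the mature arms. The 3 flanking fragments are below 0 at every time, and the 22-nt miR-15b-5p form has the lowest mean at 13 d, -4.69.

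miR-16-5p, the guide strand shared by both clusters, was not called at any time with all 8 tables. In the authors' deposited tables its 22-nt alignment at MIR16-2 had ratios of 0.970 and 7.99 at 3 d, of 0.354, 1.22 and 0.407 at 13 d, and of 0.840, 1.18 and 1.34 at 31 d. The same alignment placed at MIR16-1 had ratios of 1.05 and 7.81 at 3 d, of 0.386, 1.17 and 0.410 at 13 d, and of 0.908, 1.18 and 1.62 at 31 d. Each time held values on both sides of 1 at MIR16-2, and the times overlapped. By limma over single alignments the mean log2 ratio at MIR16-2 was -0.83 (adjusted p = 0.41) at 13 d and 0.14 (adjusted p = 0.913) at 31 d. The stacks were not called either, with 13 d values of 0.00567 ± 0.62 at MIR16-1 and -0.19 ± 0.60 at MIR16-2 (adjusted p = 0.995 and 0.840). At 3 d the stacks were at 1.33 ± 0.76 and 1.39 ± 0.73 (adjusted p = 0.164 and 0.139 by limma), and replicate 3 supplied the high values. Without replicate 1 of 3 d, which leaves 1 table at that time, the stacks were at 2.80 and 2.79. The median over all stacks in that table was 1.67.

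The values of miR-16-5p at both loci were nearly copies of each other where the letters are shared. Between loci, the mean absolute difference of log2 ratios within a table was 0.0887 at 20 nt, 0.119 at 21 nt, 0.0901 at 22 nt and 0.0888 at 23 nt. Above the shared 23 nt it was 0.493 at 24 nt and 1.29 at 25 nt. It was also larger at the shared lengths of 18 and 19 nt, at 0.288 and 0.584. The 2 loci are therefore not independent readings of miR-16-5p, and the sources used here do not say how reads that fit both were placed. A change in one cluster's miR-16-5p output cannot be told apart from a change in the other's.

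**Figure D4:**
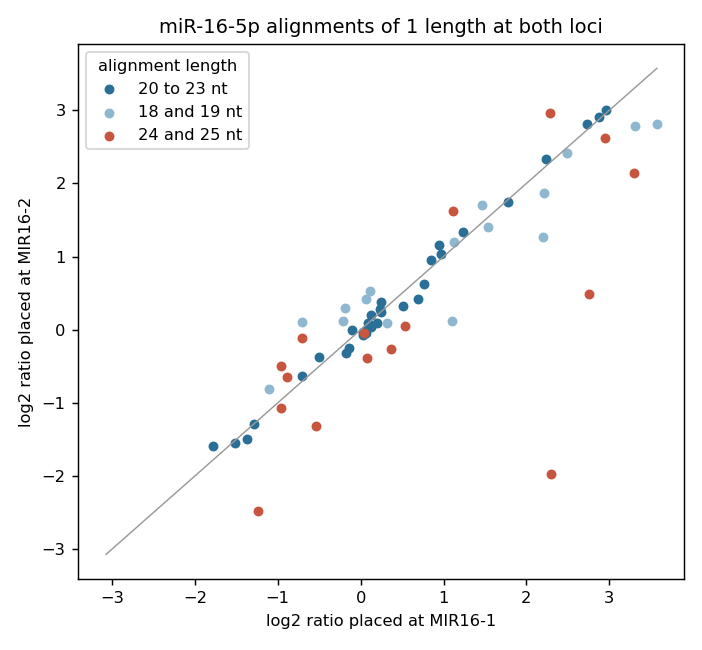
Log2 ratio of miR-16-5p alignments placed at MIR16-2 (vertical axis) against those of the same length and table placed at MIR16-1 (horizontal axis), 1 point per length and table; the line marks equal values. Points of 20 to 23 nt, whose letters are shared, lie close to the line, and those of 24 and 25 nt scatter by up to 4.27.

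The passenger strand of MIR16-2 was called higher at 3 d. In the authors' deposited tables the 22-nt miR-16-2-3p alignment had ratios of 7.81 and 20.0 at 3 d, of 0.382, 0.623 and 0.290 at 13 d, and of 0.526, 0.212 and 0.356 at 31 d. Both values of 3 d exceeded 1, all 6 later values were below it, and the times later than 3 d did not overlap with 3 d. The medians over all stacks had no overlap between these times either. It was higher at 3 d by limma over single alignments (3.64 ± 0.79, adjusted p = 0.00437), with -1.29 ± 0.64 at 13 d (adjusted p = 0.146) and -1.55 ± 0.64 at 31 d (adjusted p = 0.101) not called. Its stack was at 2.49 and 3.61 at 3 d and was called higher there (3.05 ± 0.68, adjusted p = 0.00505), also with each table centred on its median (1.86, adjusted p = 0.0165). Without 3 d replicate 3 the stack's 3 d value was 2.49, with an adjusted p of 0.0983.

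A second 5′ end of miR-16-2-3p, 1 nt upstream of the annotated one, would shift the seed by 1 base. Its stack had values of 2.10 and 3.24 at 3 d, then -0.12, 0.00592 and -1.66 at 13 d, then -0.65, -0.39 and 0.16 at 31 d. It was higher at 3 d (2.67 ± 0.70, adjusted p = 0.0134 by limma) and was not called at 13 d (-0.59) or 31 d (-0.29). The 3 d call was lost with each table centred on its median (1.49, adjusted p = 0.0649) and without 3 d replicate 3 (2.10, adjusted p = 0.178). The mean over 13 d minus that over 3 d was -3.27 ± 0.90 for this end and -3.82 ± 0.87 for the annotated end (adjusted p = 0.0064 and 0.00167).

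Over the 6 stacks, limma called 3 higher at 3 d, 2 lower at 13 d and 1 lower at 31 d, against the 22.5%, 29.0% and 27.7% of all stacks given above. Between times, 4 of 6 were lower at 13 d than at 3 d, where 37.0% of all stacks were, and 4 of 6 were lower at 31 d than at 3 d, where 37.4% of all stacks were. The 4 are miR-15b-5p, miR-15b-3p and both ends of miR-16-2-3p. Of the 6 stacks, 5 lie in the chromosome 3 cluster, and the other is miR-16-5p at MIR16-1, whose reads cannot be told from those of MIR16-2, so the calls do not compare the clusters. Without 3 d replicate 3 the counts were 2 (miR-15b-5p and the annotated end of miR-16-2-3p) and 1 (that end). The median over all stacks of these differences was -1.03 on the log2 scale for 13 d minus 3 d and -1.66 for 31 d minus 3 d. Among the 42 alignments of the hairpins and the flank that were above 0 in all tables, 9 were higher at 3 d (21.4% of all alignments), 9 lower at 13 d (20.3%) and 7 lower at 31 d (17.1%). For the differences, 12 of 42 were lower at 13 d than at 3 d (29.2% of all) and 10 of 42 were lower at 31 d than at 3 d (33.0%). These shares lie near or below those of all alignments. The 42 include 3 forms of the fragment flanking miR-15b-5p, 2 of them outside the windows, which hold 40. These forms were chosen after their values were seen, and all 3 are among the lower calls at 13 d and at 31 d. The fragment flanking miR-16-5p at MIR16-2 is not among the 42. For no stack or alignment of the 4 hairpins did 31 d against 13 d pass the test; limma called 0 of all 1078 stacks there, with 116 at an unadjusted p under 0.05, and 0 of all 11342 alignments, with 1237.

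miR-15a-5p, the guide of MIR15A, had 2 alignments above 0 in all 8 tables, against 6 for miR-15b-5p. In the authors' deposited tables its 22-nt alignment had ratios of 1.07 and 4.72 at 3 d, of 0, 0.197 and 0.130 at 13 d, and of 0.241, 0.0853 and 0.249 at 31 d. Both values of 3 d were above 1 and all 6 later values were below it. The log2 medians over all stacks were also above 0 at 3 d (0.70 and 1.67). They were below 0 in every later table except 13 d replicate 1 (0.53). How many of all alignments had such a split was not counted. Having a ratio of 0 in 13 d replicate 1, the 22-nt miR-15a-5p alignment entered no fit over all 8 tables. Its 20-nt and 21-nt forms did, and their median was -0.38 and 2.61 at 3 d, then -1.57, -0.79 and -0.97 at 13 d, then -0.83, -0.27 and -0.83 at 31 d. The 2 forms could lie far apart, at 0.63 (20 nt) and -3.76 (21 nt) in 13 d replicate 1. In 3 d replicate 1 they were at -1.12 and 0.36. With stacks of at least 2 alignments allowed, chosen after the data were seen, limma called none of its times (1.12 ± 0.76, -1.11 ± 0.62 and -0.64 ± 0.62 at 3, 13 and 31 d; adjusted p = 0.245, 0.172 and 0.465). The mean over 13 d minus that over 3 d was -2.23 ± 0.98 (adjusted p = 0.0871). Without 13 d replicate 1 the guide formed a stack of its own, which limma called lower at 31 d (-1.72 ± 0.61, adjusted p = 0.0160) and lower at 31 d than at 3 d (-2.83 ± 0.97, adjusted p = 0.0103), with 13 d minus 3 d at -2.46 ± 1.06 (adjusted p = 0.0506). With 31 d fitted alone it was also called lower (-1.43, adjusted p = 0.0490 by limma).

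The arms were also compared within a table, where shifts of the whole table cancel. The 5 differences were tested over tables by a two-sided exact sign-flip permutation test, whose smallest p over 8 tables is 0.00781, with adjustment over the 5. miR-15a-5p minus miR-15b-5p, the guides of the matching hairpins, averaged 0.25 ± 1.07 (SD, n = 8 tables, below 0 in 3, exact p = 0.5, adjusted p = 0.563). By table the difference was -1.60 and -0.75 at 3 d, then -0.47, 1.61 and 0.83 at 13 d, then 0.71, 0.85 and 0.77 at 31 d, so that it was negative in both tables of 3 d and in 1 table of 13 d.

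Within the chromosome 13 cluster, the median of the 20-nt and 21-nt miR-15a-5p forms lay below the miR-16-5p stack of MIR16-1 in every table. The difference was -0.23 and -0.19 at 3 d, then -1.10, -1.53 and -0.72 at 13 d, then -0.78, -1.52 and -1.55 at 31 d. Its mean was -0.95 ± 0.56 (SD, n = 8 tables, below 0 in 8 of 8, exact p = 0.00781, adjusted p = 0.0391). The arms contribute different lengths (20 and 21 nt for miR-15a-5p, 18 to 25 nt for miR-16-5p). With equal lengths paired it was -1.15 (below 0 in 7 of 8), and its adjusted p of 0.0781 by the exact test missed the threshold. The miR-16-5p in it holds reads of either locus. Taken singly, the 20-nt miR-15a-5p form lay above the miR-16-5p stack in 13 d replicate 1 (0.63 against -0.47). It also did in 3 d replicate 3 (2.83 against 2.80). The 21-nt form lay above that stack in 3 d replicate 1 (0.36 against -0.15).

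Within the chromosome 3 cluster, miR-15b-5p minus miR-16-5p of MIR16-2 was 1.25 and 0.55 at 3 d, then -0.83, -2.79 and -1.12 at 13 d, then -1.52, -1.76 and -2.13 at 31 d. It was above 0 in both tables of 3 d and below 0 in all 6 later ones, with a mean of -1.04 ± 1.35 (SD, n = 8 tables, exact p = 0.0781, adjusted p = 0.195). For the 22-nt mature alignments it was 1.50 and -0.07 at 3 d, then -2.52, -5.48 and -3.56 at 13 d, then -2.33, -3.61 and -3.47 at 31 d. Their mean was -2.44 ± 2.21 (SD, n = 8, below 0 in 7 of 8, exact p = 0.0234, adjusted p = 0.0781). For the stacks in the 13 d and 31 d tables alone the mean was -1.59 ± 0.85 (SD, n = 6, below 0 in 6). Its exact p of 0.0312 is the smallest for 6 tables (adjusted p = 0.0781). By the same test, alignments of 20 to 24 nt gave -1.81 (adjusted p = 0.0625) and equal lengths -1.38 (adjusted p = 0.137). Leaving out 1 table gave stack means from -1.28 to -0.79, none of which passed.

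The passenger strands of the MIR16 hairpins could be compared in 5 tables. In the authors' deposited tables the 22-nt miR-16-1-3p alignment had a ratio of 3.04 in 3 d replicate 3, of 0.847 in 13 d replicate 3, and of 0.813, 0.343 and 1.72 at 31 d. Its log2 ratio minus that of miR-16-2-3p averaged 0.48 ± 1.91 (SD, n = 5 tables, exact p = 0.563, adjusted p = 0.563), where the smallest p is 0.0625. It was -2.72 in the 1 table of 3 d and above 0 in the other 4. miR-16-5p at MIR16-1 minus that at MIR16-2 averaged 0.16 ± 0.29 (SD, n = 8 tables, exact p = 0.172, adjusted p = 0.287). Reads of up to 23 nt have the same letters at both loci, so this test cannot compare the clusters, and no conclusion is drawn from it. It stays counted in the adjustment over the differences.

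**Figure D5:**
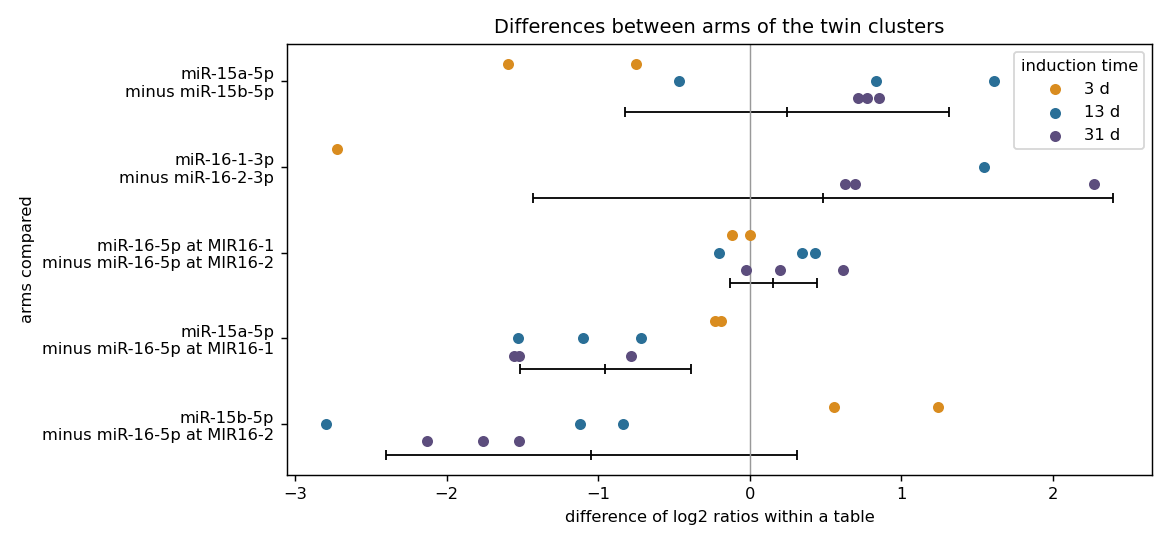
Difference between log2 ratios of 2 arms within a table (horizontal axis) for the 5 pairs compared (vertical axis), 1 point per table, coloured by induction time; the black bar below each set is its mean ± SD. miR-15a-5p minus miR-16-5p is below 0 in 8 of 8 tables, and miR-15b-5p minus miR-16-5p is above 0 at 3 d and below 0 at 13 d and 31 d.

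The stacks most like the miR-15 guides over the 8 tables were found by Pearson r, as a description with shared libraries and no test. For the miR-15b-5p stack they had their 5′ ends on hg19 at position 69967047 of chromosome 16 (plus strand, r = 0.987), 35731703 of chromosome 22 (plus strand, r = 0.984) and 150935574 of chromosome 7 (plus strand, r = 0.981), where the median over all other stacks was 0.490. For the miR-15a-5p alignments they were at position 611437 of chromosome 20 (minus strand, r = 0.969), 149112393 of chromosome 5 (plus strand, r = 0.966) and 1062648 of chromosome 7 (minus strand, r = 0.962), with a median of 0.406. None was named, since no annotation of hg19 was used here. For the same reason the other hairpins of the family (miR-195, miR-497, miR-424 and miR-503) are not analysed here.

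RefSeq hairpins were folded with RNAfold (ViennaRNA). MIR16-1 had the lowest predicted free energy, -37.0 kcal/mol, against -30.5 for MIR15A, -29.3 for MIR15B and -29.5 for MIR16-2. The 5p arm had 2 unpaired bases in MIR16-1 and 4 in each of the other 3 hairpins. These predictions describe the sequences and are not set against the ratios, since 4 hairpins with 1 shared guide leave no test.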

How the data were processed

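Small RNA of K562 cells was sequenced after gel selection of 20 to 40 nt, per the labels' protocols. The submitters' processing notes name Bowtie2 2.2.9 and hg19 (GRCh37). The authors deposited 8 tables, 1 for each Dox and water pair, with a ratio per alignment. The other 32 value columns carry no library name and were not used, so depth per library and read counts are not given, and the planned count test was not run. Starts were taken as counted from 0, which puts the RefSeq arms exactly on alignment ends. The ratio was put on the log2 scale, with no pseudocount; alignments with a ratio of 0 in any table left the fits. Stacks were tested with limma 3.58.1 in R 4.3.3, with 1 mean per day over all 8 tables, robust empirical Bayes and Benjamini-Hochberg adjustment over all features at 0.05. The pairs are biological replicates per the labels, and all days share 1 estimate of the spread. The fit was tested on simulated data. Arms were laid on hg19 by the offset of the RefSeq mature sequence in the hairpin. All arms, their neighbouring 5′ ends and the 3 stacks most alike by r were to be named; the fragments flanking miR-15b-5p were chosen after their values were seen. Members and lists were chosen with earlier results of these data known. Alternatives were centring, length windows, single alignments, each day alone, a replicate block and leaving out tables.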

Additional observations from a re-analysis of the deposited data

Results flagged for a closer look

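The change between times itself passed the limma test for 4 of 6 stacks and is listed for that reason. The log2 ratio at 13 d minus that at 3 d was -4.06 for miR-15b-5p, -2.43 for miR-15b-3p, -3.27 for miR-16-2-3p with the 5′ end 1 nt upstream and -3.82 for miR-16-2-3p with the annotated end. At 31 d minus 3 d the values were -3.71, -2.40, -2.97 and -4.04 in that order. The median over all stacks was also below 0, at -1.03 for 13 d minus 3 d and -1.66 for 31 d minus 3 d, and its part in these values was not tested. With the tables centred on that median, limma kept the calls of miR-15b-5p (-2.56, adjusted p = 0.0146) and both ends of miR-16-2-3p (-2.31, adjusted p = 0.0103 for the annotated one; -1.76, adjusted p = 0.0483 for the other) at 13 d minus 3 d, and miR-15b-3p lost its call (-0.93, adjusted p = 0.244). At 31 d minus 3 d the centred call of the annotated miR-16-2-3p end was kept, and those of miR-15b-5p (-1.83, adjusted p = 0.0710), miR-15b-3p (-0.52, adjusted p = 0.562) and the upstream end (-1.08, adjusted p = 0.231) were lost. Without 3 d replicate 3, limma kept the calls of miR-15b-5p (adjusted p = 0.0372) and the annotated miR-16-2-3p end (adjusted p = 0.0275) at 13 d minus 3 d, and miR-15b-3p (adjusted p = 0.119) and the upstream end (adjusted p = 0.0672) lost theirs. At 31 d minus 3 d that left the annotated end alone, with an adjusted p of 0.0545 for miR-15b-5p. Without 3 d replicate 1, which leaves 1 table at 3 d, both miR-15b-3p calls ended as well. In that fit miR-16-5p at 13 d minus 3 d was -2.80 at MIR16-1 and -3.07 at MIR16-2. The miR-15b-3p call was lost as well at 13 d minus 3 d without 13 d replicate 3 (adjusted p = 0.133) or 31 d replicate 3 (adjusted p = 0.0589), and at 31 d minus 3 d without 13 d replicate 2, 31 d replicate 2 or 31 d replicate 3 (adjusted p = 0.0549, 0.119 and 0.0883).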

How the results depend on the processing

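Of 6 stacks, 3 were called higher at 3 d, but 1 with tables centred by length or on their median, 0 of 7 with 3 d fitted alone, 1 of 5 mature arms with single alignments, and 0 to 5 when leaving out 1 table (5 without 3 d replicate 1, 0 without 3 d replicate 3). At 13 d 2 were called lower, but 0 to 2 when leaving out 1 table (0 without 13 d replicate 3, 1 without 13 d replicate 2). The count was also 0 without both 13 d replicate 3 and 31 d replicate 2, here named the tables of strong length trend. They are not the only ones with such a trend. In 3 d replicate 3 the median over all alignments went from 2.32 at 18 nt to 0.02 at 26 nt. At 31 d 1 was called lower, but 2 with alignments of 20 to 24 nt, 3 of 9 stacks with 31 d fitted alone (miR-15b-5p, miR-15b-3p and miR-15a-5p, which is outside the 6), 2 with single alignments, 0 without both tables of strong length trend, and 0 to 3 when leaving out 1 table (0 without 31 d replicate 2 or 31 d replicate 3, 2 without 13 d replicate 3, 3 d replicate 1 or 3 d replicate 3, 3 of 7 stacks without 13 d replicate 1, the same 3). Of 4 lower calls at 13 d minus 3 d, 2 were left centred by length, and 2 to 5 when leaving out 1 table (2 without 3 d replicate 3, 5 without 3 d replicate 1). Of 4 at 31 d minus 3 d, 2 were left centred by length, 1 centred on the median, and 1 to 5 when leaving out 1 table (1 without 3 d replicate 3, 5 of 7 stacks without 13 d replicate 1, miR-15a-5p among them). The cause was not tested. Leaving out either table of 3 d leaves 1 table at that time, so the spread then comes from the later tables alone. miR-15a-5p minus miR-15b-5p ranged from -0.25 (without 13 d replicate 1, a turned sign) to 0.51 when leaving out 1 table. With alignments of 20 to 24 nt it was 1.22, in the 13 d and 31 d tables alone 0.72, and with mature alignments 0.58. None of these 3 passed the exact test (adjusted p = 0.115, 0.104 and 0.430). Without both tables of strong length trend it was 0.19, and with equal lengths 0.21. The mean of miR-15a-5p minus miR-16-5p stayed below 0 but missed the threshold of the exact test throughout. Leaving out 1 table gave -1.53 to -0.87, each with an adjusted p of 0.0781 at the smallest p of 7 tables, 0.0156. Settings with 6 tables also reached their smallest p, 0.0312. They gave -1.20 (13 d and 31 d tables alone, adjusted p = 0.0781) and -0.90 (without both tables of strong length trend, 0.156). Misses at the smallest p say little about stability. The remaining settings did not reach their smallest p. With 20 to 24 nt it was -0.64 (below 0 in 7 of 8 tables, exact p = 0.0234, adjusted p = 0.0625). Mature alignments gave -1.91 (6 of 7, exact p = 0.0312, adjusted p = 0.0781). Equal lengths, added after seeing the data, gave -1.15 (7 of 8, exact p = 0.0156, adjusted p = 0.0781). The exact test of miR-16-1-3p had no value with alignments of 20 to 24 nt.

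A replicate block (the replicate number as a term) gave 2, 2, 1, 3, 3 and 0 calls for 3 d, 13 d, 31 d, 13 d minus 3 d, 31 d minus 3 d and 31 d minus 13 d, losing miR-15b-5p at 3 d (adjusted p = 0.0594 by limma) and both miR-15b-3p differences (0.0553 and 0.0599). Same-numbered tables of different days deviated together with r from -0.16 to 0.50 (median 0.12, 7 pairs), others from -0.43 to 0.41 (median -0.18, 14 pairs). The 2 tables of 3 d mirror each other in these values (0.31 and -0.31 with 13 d replicate 1), so the pairs are not independent. All 3 pairs of replicate 1 were positive (0.31, 0.28 and 0.50), but not every same-numbered pair was, so the numbers were not taken to pair the tables. Depth per library is unknown here, which leaves ratios of thinly listed alignments such as miR-15a-5p without a known precision. Leaving out tables was not run for single alignments.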
